A study of Mus musculus with 6 samples.

Results

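The Ink4 inhibitors, p27 and the retinoblastoma family are brakes on entry into S phase. They were followed here through all probe sets that the array's annotation table assigns to *Cdkn2a*, *Cdkn2b*, *Cdkn2c*, *Cdkn2d*, *Cdkn1b*, *Rb1*, *Rbl1* or *Rbl2*. These 8 genes had 14 probe sets, of 45037 on the array that are not controls, and each of the 14 was assigned to 1 gene only. The arrays compared *Hotair* knockout with wild-type fibroblasts, 3 arrays per genotype. Both groups were neonatal tail tip fibroblasts, and in both the mice had been crossed back to C57BL6 to over 97% similarity. The labels give neither the knockout allele nor the number of animals or cultures, so the spread between arrays may be technical. *Hotair* itself had 0 probe sets named for it and was not analysed here, so the genotype labels were not checked on their target.

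In the cell cycle, D-type cyclins with the kinases CDK4 and CDK6 begin to phosphorylate the retinoblastoma protein and its relatives, which releases E2F transcription factors and lets genes of DNA replication be transcribed. The Ink4 proteins bind CDK4 and CDK6 and keep them from the D cyclins, while p27, the product of *Cdkn1b*, mainly restrains cyclin E and cyclin A with CDK2. The Ink4b-Arf-Ink4a locus is known in cultured fibroblasts for its induction with passage and senescence, and Polycomb proteins hold it silent in young cells.

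The replicate 1 arrays of both genotypes stood apart from the rest. The 3 knockout arrays and the 3 wild-type arrays are numbered 1 to 3, and both replicate 1 arrays scored −82.7 in knockout and −114.7 in wild type on the leading principal component (48.9% of the variance), where the other arrays scored 39.3 to 74.7. The control probe sets at the 3′ and 5′ ends of *Actb* and *Gapdh*, whose difference grows as RNA degrades, differed by 0.63 and 0.75 in knockout replicate 1 and by at most 0.21 and −0.03 on the other arrays. All 12 fibroblast markers had a mean at or above the array median, 5.60. The means of 5 of 8 keratinocyte, 3 of 7 leukocyte, 4 of 5 endothelial, 4 of 5 skeletal muscle and 3 of 4 glial and melanocyte markers lay below it. The levels of some markers lay apart between the genotypes, and those named here were picked after their values were seen. Of the fibroblast markers 10 of 12 had a difference above 0 (median 0.45), and the list's median level was 12.18 to 12.51 in knockout and 11.72 to 12.23 in wild type. *Dcn*, a matrix proteoglycan, ranged over 11.54 to 12.98 in knockout and 6.87 to 10.94 in wild type, without overlap, although its other probe set differed by 0.53 only. *Thy1*, a surface marker, measured 11.71, 10.54 and 10.28 in knockout and 12.15, 4.65 and 7.17 in wild type, and *Lum*, another proteoglycan, differed by 2.64 ± 1.06 (SE). *Vim* went the other way without overlap, at 14.40 to 14.55 in knockout and 14.62 to 14.80 in wild type. *Fn1* was the other fibroblast marker below 0 (−0.18 ± 0.25, SE). The desmosome gene *Dsp*, a keratinocyte marker, was lower on every knockout array (5.49, 3.58 and 3.70) than on any wild-type array (6.43, 6.74 and 6.18), while the other 7 keratinocyte markers differed by −0.05 to 0.14. The leukocyte markers were split. *Lyz2*, *Cd68*, *C1qa* and *Itgam* were highest in knockout replicate 1 (10.57 for *Lyz2*, against 7.98 in wild-type replicate 1), *Csf1r* and *Ptprc* were highest in wild-type replicate 1, and *Cd14* was lower on every knockout array (7.89, 5.87 and 5.75) than on any wild-type array (8.17, 8.35 and 8.89). The other probe sets of *Csf1r*, however, differed by 0.76 and 0.94 and that of *Ptprc* by 0.54, all higher in knockout. *C1qa*, *Itgam* and *Ptprc* had means below the array median, so their order between arrays may be background. None of these markers was called over all arrays, and without both replicate 1 arrays *Lum* was called higher and *Dsp* and *Cd14* lower (limma adjusted p = 0.0351, 0.0253 and 0.0245). The part of cell makeup in the members' results was not tested. All levels are log2 values after RMA, a method that equalises arrays, and a difference is knockout minus wild type on that scale.

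Of the 14 probe sets 0 passed the test between genotypes, and 0 of all 45037 did (0% called by limma at an adjusted p under 0.05, the smallest being 0.924). Before adjustment *Cdkn2b* was the only member with a p under 0.05, 1 of 14, in the lower direction, where 5.34% of all probe sets had such a p in either direction and 2.45% in the lower. It was also the only member whose groups did not overlap, which held for 8.91% of all probe sets in either direction and for 4.43% in the lower. Groups of 3 cannot give an exact permutation p below 0.1. Fewer cells of a type and less RNA per cell cannot be told apart in such bulk samples.

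**Figure D1:**
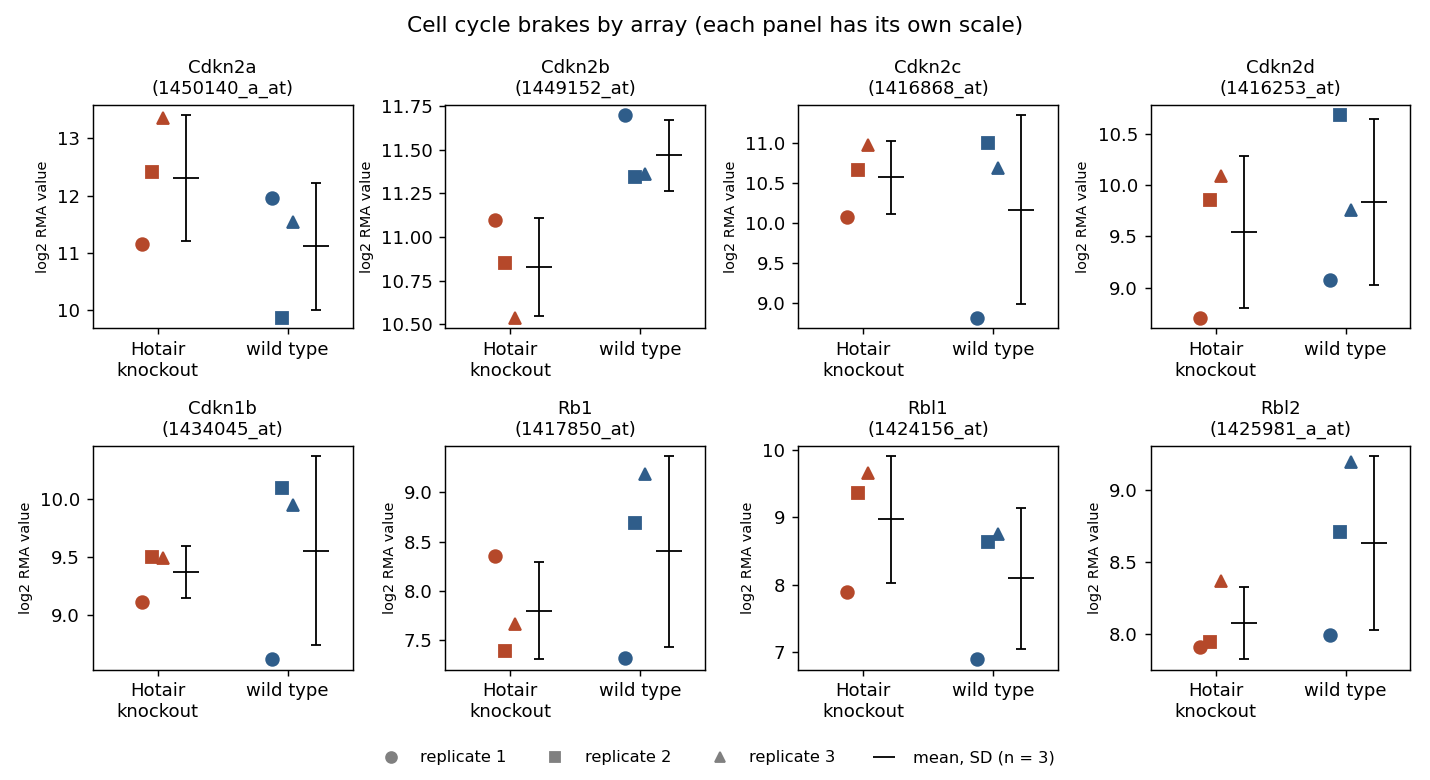
Log2 value of each gene's brightest probe set (vertical axis, own scale per panel) on the 3 knockout arrays (left, red) and 3 wild-type arrays (right, blue), with markers for the replicate number and the mean ± SD (n = 3) beside them. Only the *Cdkn2b* groups do not overlap, with knockout at 10.53 to 11.10 and wild type at 11.34 to 11.70.

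*Cdkn2a* and *Cdkn2b* lie side by side on chromosome 4. *Cdkn2b* codes for the CDK4 and CDK6 inhibitor p15Ink4b. *Cdkn2a* codes for p16Ink4a and, from its own upstream start and another reading frame, for Arf, which protects p53 by binding Mdm2. The probe set for *Cdkn2a* carries the suffix given to sets that read several transcripts of a gene, and the transcripts of p16Ink4a and Arf were not told apart here. The starts are shown because they are what separates these transcripts. RefSeq (build GRCm38.p6) lists starts 12427 bases apart for *Cdkn2a*, and the windows below run from 250 bases before each start to 50 after it, on the minus strand. Capitals mark any of 4 E2F-type motifs (TTTCGCGC, TTTGGCGC, TTTCCCGC and TTTGCCGC, either strand). The windows are chr4:89294570-89294869 for the upstream start of *Cdkn2a*, chr4:89282143-89282442 for its downstream start and chr4:89310983-89311282 for *Cdkn2b*.
Cdkn2a, upstream start: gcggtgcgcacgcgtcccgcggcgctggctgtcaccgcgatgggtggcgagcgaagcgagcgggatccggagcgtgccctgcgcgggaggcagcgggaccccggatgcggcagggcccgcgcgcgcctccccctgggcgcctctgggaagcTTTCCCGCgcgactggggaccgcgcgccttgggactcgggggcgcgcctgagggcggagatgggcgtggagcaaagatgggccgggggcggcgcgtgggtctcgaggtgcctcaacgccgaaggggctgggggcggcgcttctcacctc
Cdkn2a, downstream start: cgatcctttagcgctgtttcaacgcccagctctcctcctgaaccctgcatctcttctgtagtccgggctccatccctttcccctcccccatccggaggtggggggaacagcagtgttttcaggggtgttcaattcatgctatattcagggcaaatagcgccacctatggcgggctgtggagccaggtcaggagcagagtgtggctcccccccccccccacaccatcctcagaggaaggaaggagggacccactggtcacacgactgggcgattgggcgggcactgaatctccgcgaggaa
Cdkn2b: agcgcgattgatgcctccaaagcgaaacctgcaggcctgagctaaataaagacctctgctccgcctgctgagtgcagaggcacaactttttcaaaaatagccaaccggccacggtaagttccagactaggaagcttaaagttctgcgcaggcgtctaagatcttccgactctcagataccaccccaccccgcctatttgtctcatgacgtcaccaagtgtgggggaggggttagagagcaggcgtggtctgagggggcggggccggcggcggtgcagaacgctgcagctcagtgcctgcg
The upstream window held TTTCCCGC, beginning 99 bases before the start, and the downstream window and that of *Cdkn2b* held none of the 4. Of 32851 such windows over all genes, 2.26% held at least 1 of the 4, and TTTCCCGC was in 1.07%. A match describes the letters of the window and shows no binding.

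*Cdkn2b* was lower on every knockout array. Its values were 11.10, 10.85 and 10.53 in knockout and 11.70, 11.34 and 11.36 in wild type (replicates 1, 2 and 3). The highest knockout value thus lay under the lowest wild-type value, and the groups did not overlap. The means were 10.83 ± 0.28 in knockout and 11.47 ± 0.20 in wild type (SD, n = 3), a difference of −0.64 ± 0.20 (SE, 1.56-fold lower), with a 95% interval of −1.13 to −0.15. It did not pass over all probe sets (limma adjusted p = 0.924). Within replicate numbers 1, 2 and 3 the differences were −0.60, −0.49 and −0.82, and leaving out any array kept it between −0.77 and −0.49.

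*Cdkn2a* varied most of the 8 genes and did not separate the genotypes. It measured 11.14, 12.41 and 13.35 in knockout and 11.95, 9.85 and 11.54 in wild type. Knockout replicates 2 and 3 stood above every wild-type array, while knockout replicate 1 lay inside the wild-type range. The means were 12.30 ± 1.11 in knockout and 11.11 ± 1.11 in wild type (SD, n = 3), and the difference of 1.19 ± 0.76 (SE) had an interval of −0.68 to 3.06 (limma adjusted p = 0.980). The differences by replicate number were −0.81, 2.56 and 1.82. Replicate 1 thus went the other way, and without both replicate 1 arrays the difference was 2.19 ± 0.66 (SE), not called either (limma adjusted p = 0.165). Leaving out knockout replicate 3 gave 0.67 and leaving out wild-type replicate 2 gave 0.56, while the other single arrays left out gave between 1.14 and 1.77.

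The genes on either side of the locus were chosen after the values of *Cdkn2a* and *Cdkn2b* had been seen. *Mtap*, a methionine salvage enzyme and the nearest measured protein-coding gene on the *Cdkn2a* side, had 12.14, 11.47 and 11.41 in knockout and 11.98, 12.02 and 11.91 in wild type. Knockout replicate 1 was its highest value and knockout replicates 2 and 3 its lowest, and the difference was −0.29 ± 0.22 (SE, limma adjusted p = 0.9999). *Dmrta1*, on the *Cdkn2b* side, was dim on all arrays (3.30 to 3.55 in knockout and 3.34 to 3.54 in wild type).

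*Cdkn2c* and *Cdkn2d*, the other Ink4 genes, code for p18Ink4c and p19Ink4d, which also inhibit CDK4 and CDK6. *Cdkn2c* measured 10.08, 10.66 and 10.98 in knockout and 8.81, 11.003 and 10.69 in wild type. Its lowest value was wild-type replicate 1 and the next knockout replicate 1, while replicates 2 and 3 of both genotypes lay close together. The difference was 0.41 ± 0.62 (SE; interval −1.12 to 1.93), and without both replicate 1 arrays it was −0.03 ± 0.20. *Cdkn2d* measured 8.70, 9.85 and 10.09 in knockout and 9.07, 10.68 and 9.75 in wild type. Replicate 1 was lowest in both genotypes, and the difference of −0.29 ± 0.54 (SE; interval −1.61 to 1.03) was smaller than its error.

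*Cdkn1b* was read by 2 probe sets. The brighter measured 9.11, 9.50 and 9.49 in knockout and 8.61, 10.10 and 9.95 in wild type. Wild-type replicate 1 was lowest and wild-type replicates 2 and 3 highest, so that the knockout values lay inside the wild-type range. The difference was −0.19 ± 0.42 (SE; interval −1.23 to 0.85), and −0.53 ± 0.14 without both replicate 1 arrays (limma adjusted p = 0.131). The dimmer set read 5.27, 6.51 and 6.59 in knockout and 5.76, 6.52 and 6.57 in wild type. On this set replicates 2 and 3 of both genotypes were nearly equal (0.00 ± 0.14, SE, without replicate 1), so the probe sets of *Cdkn1b* disagreed there.

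*Rb1* codes for the retinoblastoma protein, which binds the activating E2F factors. Its brighter probe set measured 8.35, 7.39 and 7.66 in knockout and 7.32, 8.69 and 9.19 in wild type. Knockout replicates 2 and 3 were low and their wild-type counterparts high, while in replicate 1 the order was turned round. By replicate number the differences were 1.03, −1.30 and −1.53. Over all arrays the difference was −0.60 ± 0.53 (SE; interval −1.91 to 0.71), and without both replicate 1 arrays it was −1.41 ± 0.23, not called (limma adjusted p = 0.0552). The other probe set was dim, at 4.43, 4.15 and 4.12 in knockout and 4.38, 4.09 and 4.07 in wild type, and differed by 0.05 or 0.06 in every replicate number.

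*Rbl1* and *Rbl2* code for p107 and p130, relatives of the retinoblastoma protein that bind the repressive E2F factors, p130 mainly in resting cells and p107 mainly in cycling cells. *Rbl1* is itself known as an E2F target, and the window of its start on chromosome 2 is shown for this reason (RefSeq, GRCm38.p6, minus strand, chr2:157204485-157204784, with the motif in capitals).
Rbl1: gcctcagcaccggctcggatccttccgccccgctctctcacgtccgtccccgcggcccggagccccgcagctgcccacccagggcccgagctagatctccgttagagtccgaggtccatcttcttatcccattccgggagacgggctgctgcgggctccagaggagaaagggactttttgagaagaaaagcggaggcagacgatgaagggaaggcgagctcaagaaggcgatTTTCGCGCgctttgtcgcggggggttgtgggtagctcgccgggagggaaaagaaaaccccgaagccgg
It held TTTCGCGC, beginning 18 bases before the start, a motif found in 0.323% of all windows. Windows were found for 7 of the 8 genes, 9 in all, and those of *Rbl1* and of the upstream start of *Cdkn2a* were the 2 that held a motif.

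*Rbl1* was higher in knockout within every replicate number, by nearly the same amount. Its brightest probe set measured 7.90, 9.36 and 9.65 in knockout and 6.89, 8.63 and 8.75 in wild type. Replicate 1 was lowest in both genotypes, and the groups overlapped because knockout replicate 1 lay below wild-type replicates 2 and 3. The differences by replicate number were 1.01, 0.73 and 0.89, and the overall difference was 0.88 ± 0.68 (SE; interval −0.80 to 2.55). With the replicate number as a block its SE was 0.14, and it was not called (limma adjusted p = 0.536). A term for the replicate 1 arrays alone also gave an SE of 0.14, so the smaller SE does not show pairing of the other arrays. The next probe set agreed in sign, with 5.23, 7.21 and 7.56 in knockout and 5.10, 6.59 and 6.77 in wild type. Its differences of 0.13, 0.62 and 0.79 were all above 0. The other sets of *Rbl1* were dim, with values of 3.62 to 4.81 in knockout and 3.49 to 4.43 in wild type and differences of 0.00 ± 0.25 and 0.18 ± 0.15 (SE).

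*Rbl2* went the other way on both of its probe sets. The brighter measured 7.92, 7.95 and 8.37 in knockout and 7.998, 8.71 and 9.20 in wild type. The replicate 1 arrays were nearly equal and the others lower in knockout, with differences of −0.08, −0.76 and −0.83 by replicate number. The dimmer measured 6.06, 6.40 and 6.86 in knockout and 6.54, 6.99 and 7.35 in wild type, and its differences of −0.49, −0.58 and −0.49 were alike in all replicate numbers. The overall differences were −0.56 ± 0.33 and −0.52 ± 0.29 (SE), with intervals of −1.37 to 0.26 and −1.24 to 0.20. Neither was called (limma adjusted p = 0.975 and 0.973), nor with the block (0.562 and 0.536).

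**Figure D2:**
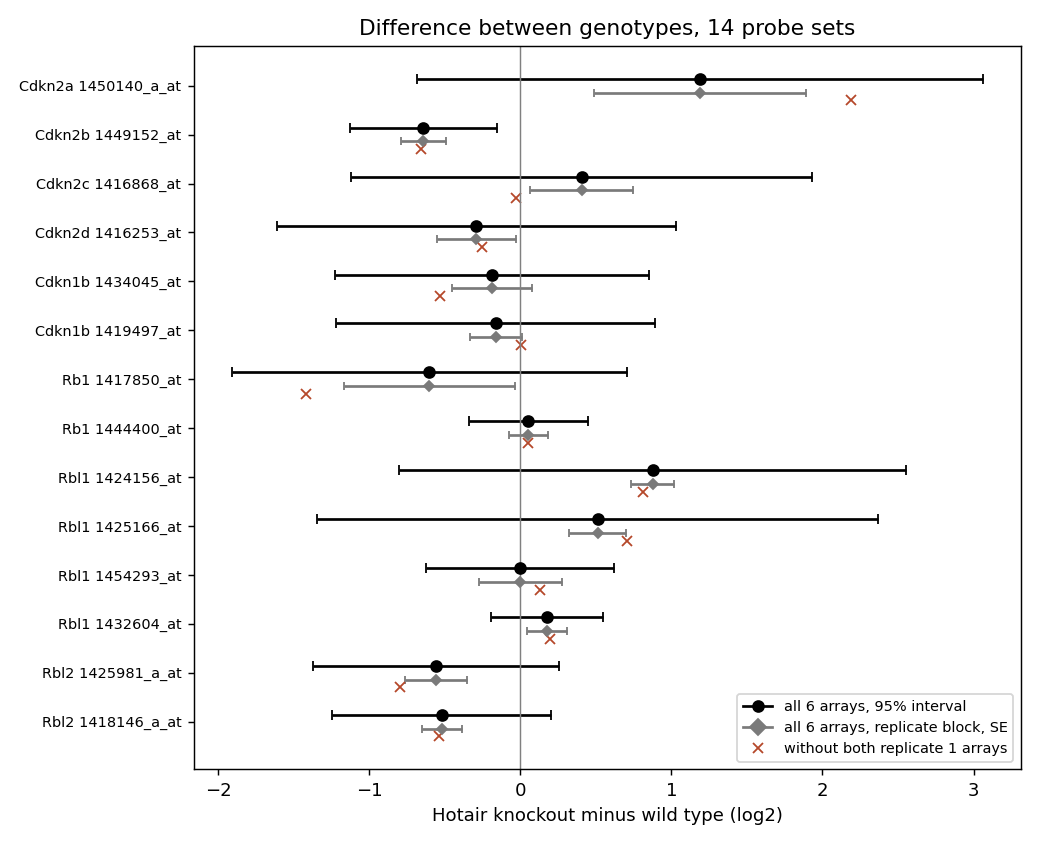
Difference between genotypes (knockout minus wild type, log2, horizontal axis) for the 14 probe sets, with the 95% interval over 6 arrays (black), the value with the replicate block and its SE (grey) and the value without both replicate 1 arrays (red crosses). Only the interval of *Cdkn2b*, −1.13 to −0.15, leaves out 0. Black bars are intervals and grey bars are SEs, so their lengths cannot be compared. With the block the SE fell from 0.68 to 0.14 for the brightest set of *Rbl1*, and a term for replicate 1 alone also gave 0.14. For the brighter set of *Rb1* it rose from 0.53 to 0.57.

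Within replicate numbers, 7 of the 14 probe sets kept a single direction, 4 higher and 3 lower in knockout, and 28.4% of all probe sets did so, 14.7% higher and 13.8% lower. The 4 were 3 sets of *Rbl1* and the dim set of *Rb1*, and the 3 were *Cdkn2b* and both sets of *Rbl2*. With the replicate block 5 of 14 had an unadjusted p under 0.05, against 8.88% of all probe sets (5.1% higher and 3.78% lower), and 0 of 14 passed after adjustment (limma, 0% of all). These were 2 sets of *Rbl1*, higher, and *Cdkn2b* and both sets of *Rbl2*, lower.

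**Figure D3:**
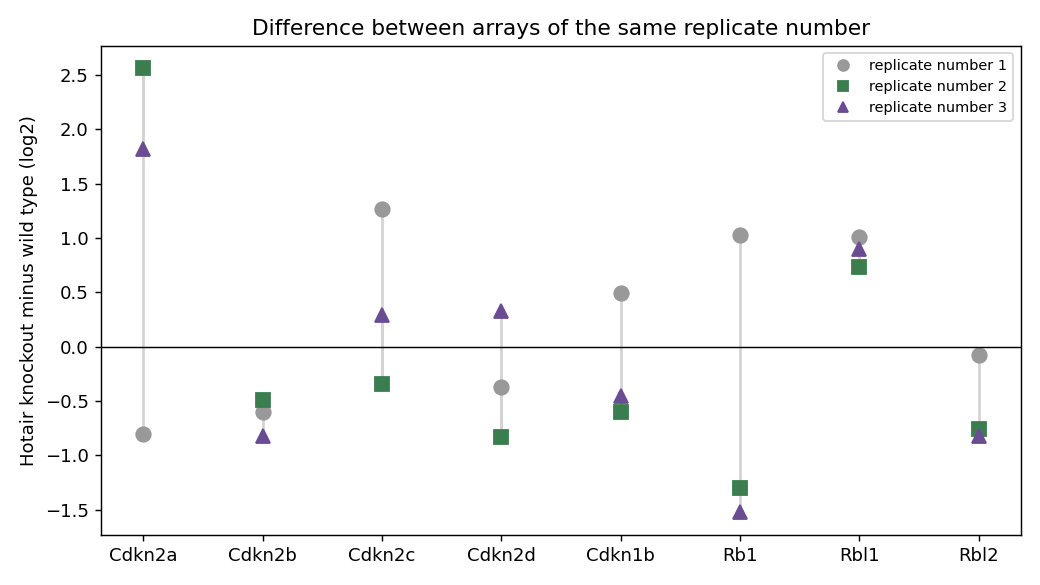
Difference between the knockout and the wild-type array of the same replicate number (vertical axis, log2) for the brightest probe set of each gene, with a marker for each number. The differences of *Cdkn2b*, *Rbl1* and *Rbl2* lie on one side of 0, and those of *Cdkn2a* (−0.81, 2.56 and 1.82) and *Rb1* (1.03, −1.30 and −1.53) turn round in replicate 1.

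Most of the brakes were low on the replicate 1 arrays of both genotypes. Replicate 1 lay below replicates 2 and 3 in both genotypes for 9 of 14 probe sets, where 17.4% of all probe sets did, and above them for 2, where 24.2% did. These shares are over probe sets of all levels, whereas 11 of the 14 lay at or above the array median. The 9 were *Cdkn2c*, *Cdkn2d*, both sets of *Cdkn1b*, 3 sets of *Rbl1* and both sets of *Rbl2*, and the 2 were *Cdkn2b* and the dim set of *Rb1*. Replicate 1 minus the mean of the others was −1.61 in knockout and −1.80 in wild type for the brightest set of *Rbl1*, and −0.74 in knockout and −2.04 in wild type for *Cdkn2c*. For *Cdkn2a* it was −1.74 in knockout and 1.26 in wild type, and for *Rb1* it was 0.83 in knockout and −1.62 in wild type, so the sign differed between the genotypes.
The proliferation lists were low on the same arrays. Relative to each gene's mean, the median of 11 mitosis markers was −1.77, 1.24 and 1.28 in knockout and −2.30, 1.18 and 0.65 in wild type. That of 20 S phase genes under E2F control was −0.66, 0.68 and 0.80 in knockout and −0.86, −0.12 and 0.10 in wild type. Replicate 1 was thus lowest in both genotypes on both lists. Whether proliferation had a part in the levels of the brakes was not tested.

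**Figure D4:**
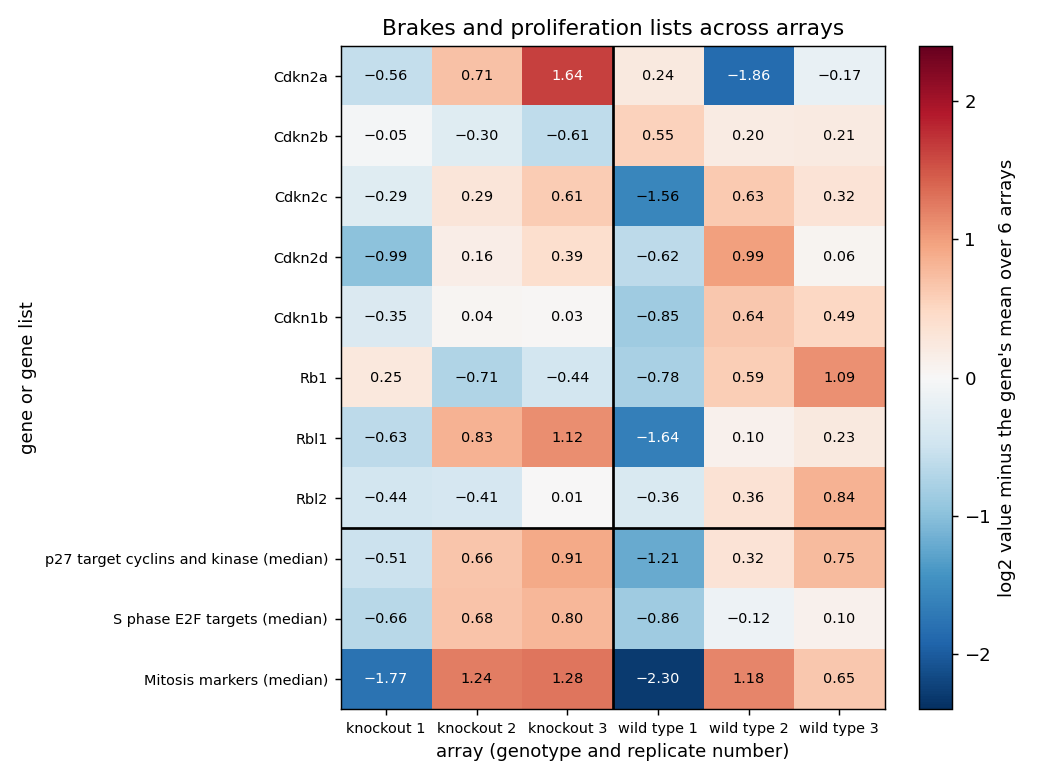
Log2 value relative to the gene's own mean over the 6 arrays (colour and printed number) for the 8 genes (brightest probe set) and, under the line, the medians of 3 lists, with knockout arrays on the left and wild-type arrays on the right. *Rbl1* and *Cdkn2c* are low on both replicate 1 arrays, as are the mitosis markers (−1.77 and −2.30), whereas *Cdkn2a* is highest in knockout replicate 3 (1.64) and lowest in wild-type replicate 2 (−1.86).

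Without both replicate 1 arrays 0 of the 14 probe sets were called, where 4.08% of all were, 2.01% higher and 2.06% lower (limma, 2 arrays per genotype). At an unadjusted p under 0.05 there were 7, 3 higher and 4 lower, against 20.3% of all, 10.3% higher and 10.1% lower: *Cdkn2a* and 2 sets of *Rbl1* higher, and *Cdkn2b*, *Rb1* and a set each of *Cdkn1b* and *Rbl2* lower. The values of 10 of 14 did not overlap between genotypes, 5 in each direction, and those of 48.7% of all probe sets did not.

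The other inhibitors of the Cip/Kip class were measured as well. *Cdkn1a*, which codes for p21 and is a main target of p53, measured 13.63, 9.16 and 9.32 in knockout and 13.63, 12.01 and 12.58 in wild type. It was equal in replicate 1 and far lower in knockout replicates 2 and 3. Over all arrays the difference was −2.04 ± 1.28 (SE, limma adjusted p = 0.976), and without both replicate 1 arrays it was −3.06 ± 0.24, which was called (limma adjusted p = 0.0245). *Cdkn1c*, the imprinted gene of p57, measured 8.62, 8.34 and 8.21 in knockout and 8.16, 6.16 and 6.48 in wild type. All knockout values lay above all wild-type values, and the difference of 1.46 ± 0.53 (SE) was not called over all arrays (limma adjusted p = 0.924), whereas 1.95 ± 0.18 was without replicate 1 (0.0277).

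Of the 5 genes of the D cyclins and of the Ink4 targets CDK4 and CDK6, 0 were called. Their median difference was −0.24, against 0.01 over all 18193 genes. *Ccnd1*, *Ccnd2* and *Cdk6* differed by −0.24 ± 0.20, −0.47 ± 0.23 and −0.53 ± 0.31 (SE) and *Cdk4* by −0.03 ± 0.21. *Ccnd3* had 10.65, 10.83 and 11.16 in knockout and 10.86, 9.76 and 9.85 in wild type, a difference of 0.72 ± 0.33 (SE), and was called without replicate 1 (1.18 ± 0.18, limma adjusted p = 0.0463). Its other probe sets, however, differed by 0.13 and 0.20 only. Among the partners that p27 restrains, *Ccne1* (0.53 ± 0.22), *Ccne2* (0.89 ± 0.96) and *Ccna2* (0.69 ± 1.49) were above 0 and *Cdk2* (−0.71 ± 0.42) below. The list median was 0.61, and 0 of 4 were called. The other probe sets of *Ccne1*, *Ccna2* and *Cdk2* differed by 0.83, 0.76 and 0.02. *Ccne1* was higher on every knockout array (10.52, 10.63 and 10.94) than on any wild-type array (10.49, 10.20 and 9.82).

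The E2F and DP factors, through which the retinoblastoma family acts, had a median difference of 0.08, and 0 of 10 were called. The most positive were *E2f8* (0.28 ± 0.51) and *E2f2* (0.23 ± 0.13), and the most negative were *E2f6*, a repressor that works without the retinoblastoma family (−0.68 ± 0.30), and *E2f4*, the main partner of p130 (−0.14 ± 0.14, SE). The other sets of *E2f8*, *E2f2* and *E2f6* differed by −0.03, 0.22 and −0.25. Of the MuvB core and its partners, which join p130 or p107 in the DREAM complex or drive mitotic genes, 0 of 7 were called. *Lin9* (0.92 ± 0.98), *Rbbp4* (0.31 ± 0.13), *Mybl2* (0.19 ± 0.67) and *Lin54* (0.12 ± 0.83) were above 0, and *Lin52* (−0.13 ± 0.35), *Foxm1* (−0.10 ± 0.69) and *Lin37* (−0.08 ± 0.31) were below. Another probe set had the opposite sign for *Lin54* (−0.41) and for *Foxm1* (0.02). Only *Rbbp4*, a histone chaperone, had groups that did not overlap, at 12.94 to 13.16 in knockout and 12.70 to 12.84 in wild type.

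Of the 20 measured S phase genes 19 had a difference above 0, the median being 0.53, and 0 were called over all arrays. *Uhrf1*, which guides maintenance of DNA methylation, differed by 1.28 ± 0.74 (SE), the replication factor *Mcm10* by 0.99 ± 0.78 and the origin subunit *Orc1* by 0.13 ± 0.41. *Rrm2*, a subunit of ribonucleotide reductase, was the gene below 0 by its brightest set (−0.64 ± 0.37, SE). *Mcm5*, *Dut*, *Tyms*, *Cdt1* and *Rrm1*, named after their values were seen, each had another set below 0, the lowest at −0.54 for *Mcm5*. The other sets of *Mcm10* differed by 0.06 and 0.80. Without both replicate 1 arrays 4 of 20 were called, all higher, and they were *Mcm3* (1.30), *Cdc6* (1.35), *Cdc45* (1.16) and *Uhrf1* (1.38), of which all but *Uhrf1* are named after their values were seen. Of the 11 mitosis markers 10 lay above 0 with a median of 0.42, from *Bub1* (0.70 ± 1.99) and *Top2a* (0.59 ± 1.38) to *Birc5* (0.21 ± 0.99) and *Ccnb2* (−0.08 ± 1.36, SE), and 0 were called with or without replicate 1. Without both replicate 1 arrays their median was 0.15, with *Ccnb2* (−0.28), *Birc5* (−0.05) and *Mki67*, named after its value was seen (−0.46), below 0, while that of the S phase genes was 0.61. Of the mitosis markers named, only *Bub1* and *Top2a* had other probe sets. Over all arrays these differed by −0.46 for *Bub1* and by −0.0097 and −0.0038 for *Top2a*. *Chaf1a* and *Ccnb1* were not analysed here.

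Genes that set the level of p27 protein were led by *Skp2*, the F-box protein that marks p27 for destruction. It measured 7.97, 10.68 and 10.82 in knockout and 8.79, 9.03 and 9.11 in wild type. It was thus lower in knockout replicate 1 and higher in knockout replicates 2 and 3 than on any wild-type array. The difference was 0.85 ± 0.78 (SE) over all arrays and 1.68 ± 0.14 without replicate 1, where it was called (limma adjusted p = 0.0257). Its cofactor *Cks1b* differed by 0.41 ± 0.23, and the lowest of the 10 genes were *Cul4a* (−0.41 ± 0.22) and *Rnf123* (−0.37 ± 0.47, SE), with a median of 0.14 and 0 called over all arrays. The FoxO factors, which activate *Cdkn1b*, differed by 0.05 ± 0.34 (*Foxo1*), −1.16 ± 0.57 (*Foxo3*) and −0.19 ± 0.23 (*Foxo4*, SE). *Foxo3* measured 9.43, 9.05 and 9.06 in knockout and 9.19, 10.31 and 11.50 in wild type, so that replicates 2 and 3 again differed where replicate 1 did not, and 0 of 3 were called.

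Among 17 known regulators of the Ink4b-Arf-Ink4a locus the median difference was −0.02, with 8 above 0, 9 below and 0 called. The most positive were the Polycomb subunits *Cbx7* (0.50 ± 0.33) and *Rnf2* (0.45 ± 0.43). Their other probe sets differed by 0.0002 and 0.09 for *Cbx7* and by −0.005 to 0.44 for *Rnf2*. The most negative were *Id1*, an inhibitor of the Ets factors that activate *Cdkn2a* (−1.17 ± 0.84), and *Hmga2*, a chromatin protein known to hold the locus down in young neural stem cells of the mouse (−1.09 ± 0.53, SE). *Hmga2* measured 13.14, 11.94 and 11.83 in knockout and 12.51, 13.60 and 14.06 in wild type. In replicate 1 it was higher in knockout and in the others lower, and it was called without replicate 1 (−1.95 ± 0.21, SE, limma adjusted p = 0.0322). On the Arf and p53 side, *Mdm2*, the ubiquitin ligase of p53 and also its target, measured 10.61, 8.85 and 8.91 in knockout and 10.43, 11.35 and 12.36 in wild type. The replicate 1 arrays were alike and the others far apart, with a difference of −1.92 ± 0.67 (SE, limma adjusted p = 0.924) and, without replicate 1, of −2.97 ± 0.37 (0.0355). *Mdm4*, a relative that restrains p53, differed by 0.22 ± 0.54 (SE), and *Trp53* was not analysed here.

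The genes whose profiles over the 6 arrays were most like those of the brakes were sought among 6426 genes at or above the array median that spanned at least 1 log2 unit. As replicate 1 stands apart, Pearson's r over 6 arrays serves here only as a measure of likeness. The nearest to *Rbl1* were *Rad17*, a checkpoint clamp loader (0.9997), *Ap3m1* (0.9991) and *Rnf139* (0.9982), and to *Cdkn1b* they were *Smc6* (0.9992), *Rbm25* (0.99) and *Hmgn5* (0.99). *Rb1* was nearest to *Bpnt2*, *Irs2* and *Asah2* (0.99 each), *Cdkn2c* to *Ndufa5*, *Phf6* and *Tex9* (0.99 each) and *Cdkn2d* to *Hyls1*, *Srek1ip1* and *Tma16* (0.98 each). *Cdkn2a* was nearest to *Gstm1*, *Tef* and *Dtx4* (0.98 each), *Cdkn2b* to *Carhsp1*, *Psmd8* and *Nploc4* (0.98 each) and *Rbl2* to *Zxdc*, *Nxt2* and *R3hcc1l* (0.98 each). No member was among the 3 nearest of another, which with 6426 candidates says little about likeness among the brakes. Between members, r ran from −0.83 (*Cdkn2b* and *Rbl1*) to 0.90 (*Cdkn2c* and *Rbl1*). *Psmd8*, a proteasome subunit, measured 12.55, 11.79 and 11.69 in knockout and 13.47, 12.96 and 12.98 in wild type. *Psmd8*, *Carhsp1* and *Nploc4* were all lower on every knockout array than on any wild-type array. They were picked for likeness to *Cdkn2b*, so this is no separate result.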

How the data were processed

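Per the submitters' processing notes the authors used RMA and R 2.11.1, and they deposited a log2 value for each probe set and array. RMA equalises arrays, so a change in total RNA cannot be seen, and it compresses differences of dim probe sets. The array number limits the precision. Probe sets were named from the platform's annotation table. Of 45101 probe sets 64 controls were left out, and of the other 45037, 34945 had 1 gene, 932 several and 9160 none. Genes outside the members were represented by their single-gene probe set of highest mean. Differences were fitted with limma 3.58.1 in R 4.3.3 on all 45037 probe sets, genotype being the only term, with Benjamini-Hochberg adjustment at 0.05, and the scripts were tested on simulated data. "Not called" means an adjusted p at or above 0.05.

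The labels number the arrays of each genotype 1 to 3. The deviations of same-numbered arrays from their group's mean had correlations of 0.50, 0.49 and 0.25, all over 0.1, so the numbers were taken to pair the arrays. Wild-type replicate 3, however, correlated better with knockout replicate 2 (0.33). As both replicate 1 arrays stood apart, they alone can raise such correlations, which therefore cannot show that the arrays numbered 2 or 3 are pairs. The block and the differences by replicate number rest on this pairing.

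Members and lists were chosen with earlier results of these data known. All probe sets of the members were named. So was every gene of a pathway list of at most 9 measured genes, otherwise the 2 of most positive and the 2 of most negative difference, and for each member the 3 genes of highest Pearson r. Cell type markers had no such rule. Alternatives were the block, a term for replicate 1, leaving out arrays, other eBayes priors, a filter on dim probe sets, renormalisation, array weights, 1 probe set per gene and the mean of a gene's probe sets.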

Additional observations from a re-analysis of the deposited data

How the results depend on the processing

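The count of 0 called members held under all alternatives run. The count over all probe sets, 0 by limma with 2406 at an unadjusted p under 0.05, became 1836 without both replicate 1 arrays. Leaving out 1 array gave 0 to 48 calls, 48 of them without knockout replicate 1. With the replicate block it stayed 0 over all probe sets and 0 among the members, and the block changed no call. Array weights also gave 0 (smallest adjusted p 0.0927).

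Of the members, *Cdkn2a*, *Cdkn2b*, *Rbl2* and the brightest sets of *Rb1* and *Rbl1* kept their direction throughout. Over single arrays left out, *Cdkn2a* ranged between 0.56 and 1.77, *Rb1* between −1.14 and −0.21, *Rbl1* between 0.28 and 1.41 and *Rbl2* between −0.88 and −0.28. Without both replicate 1 arrays *Cdkn2c* turned to −0.025 and the dimmer set of *Cdkn1b* to 0.0028. With 1 array left out the direction turned for *Cdkn2c* (−0.27 to 0.82), *Cdkn2d* (−0.67 to 0.13), *Cdkn1b* (−0.66 to 0.086 on the brighter set and −0.42 to 0.26 on the other), the dim set of *Rb1* (−0.044 to 0.15) and *Rbl1* sets (−0.014 to 1.23 and −0.25 to 0.16). The cause was not tested. No detection calls were used, so values of the 3 member probe sets with a mean below the array median, all of *Rb1* or *Rbl1*, may be background. The brightest set of each gene lay above that median.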
